A study of Homo sapiens with 8 samples.

Results

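Genes outside glycolysis that are known to be induced by low oxygen were described in NB4, a human cell line from acute promyelocytic leukaemia, carrying 1 of 3 hairpins against CDK2, a cyclin-dependent kinase, or a scrambled control. The 33 genes are a list proposed with earlier results of these data known, and each was represented by 1 probe set, chosen by its mean signal over all 8 arrays. Of these genes 31 were found among 18132 genes with a probe set of their own, while EGLN2 and CA9 are not analysed here. Cells were transduced by lentivirus with shCDK2 #10, shCDK2 #3, shCDK2 #1 or scramble and harvested at 5 or 2 days, given as a late and an early stage of differentiation. There were 8 Affymetrix arrays, 1 for each of the 4 constructs on each day, and the labels name no low-oxygen treatment. All values are log2 signals as deposited, so that 1 unit is a doubling. Nothing in the labels states separate cultures, so p-values reflect the spread among these arrays alone, which may be technical.

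In cells with enough oxygen, prolyl hydroxylases of the EGLN family mark the HIF alpha subunits for destruction through VHL. When oxygen or the activity of these enzymes falls, the alpha subunit persists, pairs with ARNT and binds short DNA elements beside its target genes. HIF activity is therefore regulated largely at the level of protein, which arrays do not measure. Targets outside glycolysis include mitophagy receptors, histone demethylases, the secreted peptide adrenomedullin and the prolyl hydroxylases themselves.

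CDK2 itself went against 2 of the labels. As a percentage of the same-day scramble array, its signal at day 5 was 92.9% in #10, 72.3% in #3 and 81.1% in #1, and at day 2 it was 34.0% in #10, 95.0% in #3 and 39.9% in #1. The scramble array of day 5 carried 53.2% of the CDK2 signal of the scramble array of day 2. These values are from the brightest of 3 CDK2 probe sets. The second gave a similar picture, with 39.5% in that scramble array, but on the dimmest, with a mean of 7.34 log2, scramble at day 5 was at 101% of scramble at day 2, and #10, #3 and #1 at day 2 were at 71.7%, 108% and 79.7% of scramble. On the 2 brighter probe sets CDK2 was thus nearest to its control level in the array labelled #3 among the hairpin arrays of day 2, and low in the array labelled scramble at day 5, and any direction that rests on either array is in doubt for that reason. Over all probe sets, the day 5 array of #3 correlated best with the day 2 array of #10 (r = 0.989), and the array labelled scramble at day 5 with the day 2 array of #1 (r = 0.994). Scramble at day 2 (r = 0.991) and the array labelled #3 at day 2 (r = 0.989) also correlated best with that array of #1. The match is therefore not particular to the array labelled scramble at day 5. Array medians lay between 6.30 and 6.43 log2. Of 8 promyelocyte markers 7 were on the array and all 7 passed the filter below; their summed signal was 14.10 to 14.78 log2 in hairpin arrays and 14.65 to 14.91 in scramble arrays. CD33 was the marker with no probe set of its own, and ELANE lay close to the filter. Lymphoid, erythroid, and fibroblast and epithelial markers were dimmer in sum, with 8.01 to 8.38, 7.67 to 8.19 and 8.35 to 8.79 log2 in hairpin arrays. In scramble arrays they had 8.22 to 8.56, 7.99 to 8.28 and 8.57 to 8.58. Of those on the array, 3 of 4, 2 of 3 and 4 of 5 passed the filter as well. CD79A (mean 7.36), ALAS2 (7.01) and KRT18 (6.67) were brighter than ELANE (6.18). Passing the filter thus does not set the promyelocyte markers apart, and the brightest of these was MPO (14.11).

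The promoter windows of 5 genes are shown because they span the pathway: BNIP3, ADM and DDIT4 are targets that were high in #10, EGLN1 is a sensor that is itself a target, and EGLN3 is a sensor below the filter. Each is 300 bases of RefSeq sequence on GRCh38.p14, from 250 bases before to 50 after the annotated start, written on the gene's strand. Capitals mark the HIF element cores ACGTG and GCGTG or their reverse complements.
BNIP3, chr10:131981874-131982173, minus strand: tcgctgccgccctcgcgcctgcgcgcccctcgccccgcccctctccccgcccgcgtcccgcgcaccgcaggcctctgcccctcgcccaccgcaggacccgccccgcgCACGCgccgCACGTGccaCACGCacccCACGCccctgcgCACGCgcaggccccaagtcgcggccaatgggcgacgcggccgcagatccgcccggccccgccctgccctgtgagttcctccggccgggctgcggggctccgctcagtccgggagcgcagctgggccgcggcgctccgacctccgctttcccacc
ADM, chr11:10304823-10305122, plus strand: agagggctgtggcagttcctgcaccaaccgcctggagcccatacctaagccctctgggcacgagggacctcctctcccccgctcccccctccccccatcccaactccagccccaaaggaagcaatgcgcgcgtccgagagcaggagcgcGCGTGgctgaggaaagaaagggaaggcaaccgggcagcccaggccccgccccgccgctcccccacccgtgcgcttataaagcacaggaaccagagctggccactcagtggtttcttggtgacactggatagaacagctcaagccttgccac
DDIT4, chr10:72273674-72273973, plus strand: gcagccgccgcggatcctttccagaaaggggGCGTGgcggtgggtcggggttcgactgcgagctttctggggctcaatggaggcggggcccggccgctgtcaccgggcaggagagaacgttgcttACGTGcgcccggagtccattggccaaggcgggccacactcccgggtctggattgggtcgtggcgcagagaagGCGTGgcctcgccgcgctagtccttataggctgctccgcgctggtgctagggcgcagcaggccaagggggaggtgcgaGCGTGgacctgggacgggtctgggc
EGLN1, chr1:231422238-231422537, minus strand: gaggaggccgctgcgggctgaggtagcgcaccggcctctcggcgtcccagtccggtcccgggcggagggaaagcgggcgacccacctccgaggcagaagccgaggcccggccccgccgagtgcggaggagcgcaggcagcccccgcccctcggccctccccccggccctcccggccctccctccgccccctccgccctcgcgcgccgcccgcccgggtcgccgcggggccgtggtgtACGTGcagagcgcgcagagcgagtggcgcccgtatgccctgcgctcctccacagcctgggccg
EGLN3, chr14:33951025-33951324, minus strand: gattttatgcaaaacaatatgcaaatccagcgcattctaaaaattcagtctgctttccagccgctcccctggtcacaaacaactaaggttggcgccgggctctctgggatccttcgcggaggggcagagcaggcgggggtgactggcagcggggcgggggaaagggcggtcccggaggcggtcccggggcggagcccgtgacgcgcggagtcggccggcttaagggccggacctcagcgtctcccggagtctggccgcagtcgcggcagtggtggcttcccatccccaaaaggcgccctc

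BNIP3 held 6 matches, packed between positions -143 and -104 from the start, and DDIT4 held 4, spread over its window. ADM and EGLN1 held 1 each, at -101 and -13. EGLN3 held none, which says only that these letters are not in this window. Both strands were searched, and the palindrome CACGTG counts once on each strand. Of the 33 genes 26 had a window in the table, with 35 windows between them, and 29 of these windows (82.86%) held a core. Among all 35116 promoter windows of the same length 17012 (48.45%) did. Both are shares of windows and not of genes. Some genes gave several windows, and those of KDM3A and of INSIG2 overlap. Windows of EGLN2 and CA9, which are not analysed here, are counted as well. Of the 15 genes higher in #10 described below, 10 had a window and all 10 held at least 1 core. This count takes each gene's windows together, so the share over windows is not its background. Tested genes not called there held cores too: HIF1A, EPAS1, EGLN1, FAM162A, KDM4B, CITED2, ANKRD37, P4HA1, ERO1A and WSB1, but not ARNT. A core thus did not set the called genes apart. No window was found for BNIP3L, JMJD6, SPAG4, ZNF395, VEGFA, NRP1 and NDRG1. A match describes letters, not binding.

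Genes with a mean above 5.83 log2, the 40th percentile of all probe sets, were tested: 12845 in all and 28 of the 31 genes here. EPAS1 (6.06) and ARNT (6.78) lay just inside this limit, and EGLN3 (4.56), P4HA2 (3.90) and RORA (3.75) were outside it. A gene's mean includes the hairpin arrays, so SPAG4 and NRP1 passed through them while their mean over the scramble arrays lay under 5.83. Both are counted among the calls in #10 below, and SPAG4 also against #1. Their calls are listed only, and no support for a rise in #10 is drawn from them. limma was used with construct and day as terms, the 2 days standing in as repeats of each construct, and a gene was called at a Benjamini-Hochberg adjusted p under 0.05 over all tested genes. Each change below is the difference of 2 hairpin arrays and 2 scramble arrays.

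In #10, 15 of the 28 genes were higher than in scramble and none was lower, where 1.69% of all tested genes were called higher. Their median change was 1.58 log2, against -0.09 over all tested genes. In #3, 1 of 28 was higher (0.0311% of all tested genes), with a median of 1.10 against -0.07. In #1, 0 of 28 were called (0% of all tested genes by limma, with 171 genes and 4 of the 28 at an unadjusted p under 0.05), with a median of 0.20 against -0.02. These comparisons share the scramble arrays, and the list was proposed with such results known, so nothing is read from the shares. Both #10 arrays lay above both scramble arrays for 24 of the 28, as for 21.2% of all tested genes. The same held in #3 for 22 (15.8% of all tested genes) and in #1 for 9 (11.4%). In bulk RNA, a higher level per cell and more cells at a high level cannot be told apart.

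**Figure D1:**
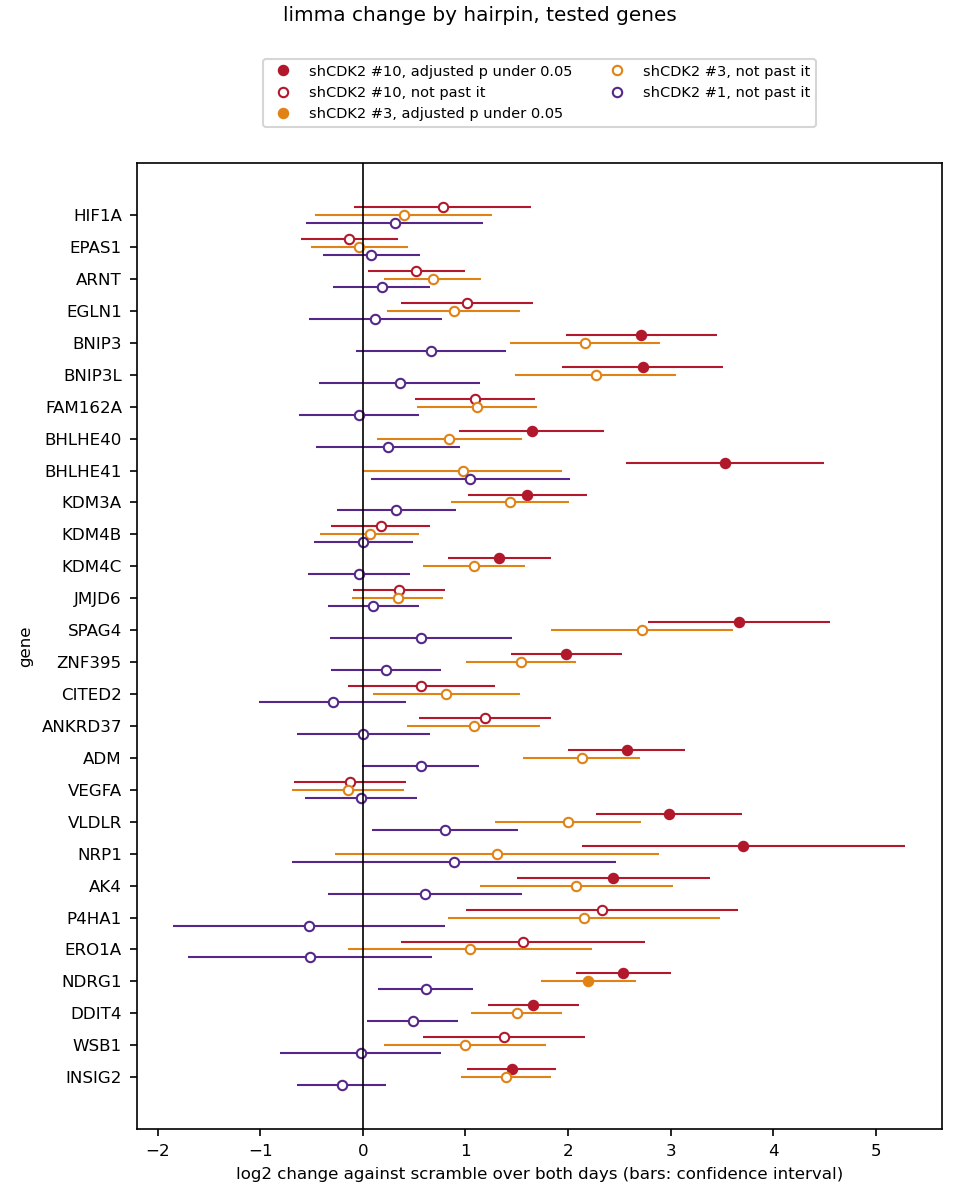
Log2 change against scramble over both days for the 28 tested genes, by role from HIF factors at the top to stress genes at the bottom; points are limma estimates for #10 (red), #3 (orange) and #1 (purple), bars are 95% intervals, and filled points passed an adjusted p of 0.05. The 15 filled points of #10 and the 1 of #3 all lie to the right of 0, and most intervals of #1 cross it.

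None of the 3 HIF factors passed the test. HIF1A encodes the alpha subunit that is degraded when oxygen is ample. At day 5 HIF1A had 10.23 log2 in #10, 10.71 in #3, 9.95 in #1 and 9.85 in the array labelled scramble, and at day 2 it had 10.59 in #10, 9.35 in the array labelled #3, 9.94 in #1 and 9.41 in scramble. It was lowest in the array labelled #3 at day 2, and both #10 arrays lay above both scramble arrays. Its change was 0.78 log2 (SE 0.37, adjusted p = 0.294) in #10, 0.40 in #3 and 0.31 in #1. The 8 HIF1A probe sets all gave a positive change in #10, between 0.33 and 0.78 log2, and none was called when probe sets were tested singly.

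EPAS1 encodes HIF-2 alpha, the other main alpha subunit. At day 5 EPAS1 had 5.93 log2 in #10, 5.85 in #3, 6.11 in #1 and 6.19 in the array labelled scramble, and at day 2 it had 5.97 in #10, 6.25 in the array labelled #3, 6.22 in #1 and 5.97 in scramble. The groups overlapped throughout on this dim probe set, and its changes were -0.13 in #10 (adjusted p = 0.776), -0.03 in #3 and 0.08 in #1. A second EPAS1 probe set was only slightly dimmer and differed from it. There the signal at day 5 was 6.71 in #10, 6.28 in #3, 5.52 in #1 and 5.63 in the array labelled scramble, and at day 2 it was 6.88 in #10, 5.32 in the array labelled #3, 5.55 in #1 and 5.04 in scramble. That is 1.46 log2 in #10 (SE 0.29, adjusted p = 0.061 over all probe sets), which missed the threshold. The direction for EPAS1 in #10 therefore depends on the probe set.

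ARNT encodes the constant partner of both alpha subunits. At day 5 ARNT had 6.88 log2 in #10, 7.35 in #3, 6.74 in #1 and 6.53 in the array labelled scramble, and at day 2 it had 7.04 in #10, 6.88 in the array labelled #3, 6.49 in #1 and 6.34 in scramble. Both #10 arrays and both #3 arrays stood above both scramble arrays. The changes were 0.52 in #10 (adjusted p = 0.209), 0.68 in #3 and 0.18 in #1, none past the test, and the 5 ARNT probe sets spanned -0.06 to 0.89 in #10.

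Among the oxygen sensors, EGLN1 encodes the main prolyl hydroxylase of HIF-1 alpha and is itself a HIF target. At day 5 EGLN1 had 8.53 log2 in #10, 8.91 in #3, 7.81 in #1 and 7.49 in the array labelled scramble, and at day 2 it had 9.02 in #10, 8.38 in the array labelled #3, 7.95 in #1 and 8.03 in scramble. Every array of #10 and #3 exceeded both scramble arrays, while those of #1 lay between them. The change was 1.02 log2 (SE 0.28, adjusted p = 0.101) in #10, 0.88 in #3 and 0.12 in #1, so EGLN1 did not pass. Without either array of #3 it passed in #10, but more of all tested genes were called there too. That pass is therefore not read as a result about EGLN1. EGLN3 encodes a hydroxylase that is strongly hypoxia-induced in many cells. At day 5 EGLN3 had 4.56 log2 in #10, 4.18 in #3, 4.48 in #1 and 4.85 in the array labelled scramble, and at day 2 it had 4.53 in #10, 4.67 in the array labelled #3, 4.57 in #1 and 4.63 in scramble. The array labelled scramble at day 5 was the highest of the 8, and EGLN3 was not tested.

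Other regulators of HIF gave no call. The list held VHL, the hydroxylase gene HIF1AN, HIF3A, ARNT2, the VHL ligase subunits CUL2, RBX1, ELOB and ELOC, the coactivators EP300 and CREBBP, and the ubiquitin ligases SIAH1 and SIAH2. All 12 were tested, and 0 were called in any comparison with limma. Their median change was 0.00 in #10, 0.00 in #3 and -0.10 in #1, where the medians of all tested genes were -0.09, -0.07 and -0.02.

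BNIP3 and BNIP3L encode receptors in the outer mitochondrial membrane that tether damaged mitochondria to the autophagy machinery, and both rose in #10. At day 5 BNIP3 had 12.62 log2 in #10, 12.12 in #3, 10.58 in #1 and 9.33 in the array labelled scramble, and at day 2 it had 12.84 in #10, 12.24 in the array labelled #3, 10.78 in #1 and 10.70 in scramble. Every array of #10 and #3 was above both scramble arrays, and the scramble arrays differed from each other by 1.37. BNIP3 rose by 2.71 log2 (SE 0.31, adjusted p = 0.016), or 6.56-fold, in #10, with values of 2.17 in #3 and 0.66 in #1. A second BNIP3 probe set, too dim to be tested (mean 5.69 log2), gave -0.11 in #10 and -0.10 in #3.

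At day 5 BNIP3L had 11.41 log2 in #10, 11.60 in #3, 8.98 in #1 and 8.73 in the array labelled scramble, and at day 2 it had 11.43 in #10, 10.33 in the array labelled #3, 9.12 in #1 and 8.65 in scramble. The 2 scramble arrays were close together and below all 6 hairpin arrays, with the array labelled #3 at day 2 midway. BNIP3L rose by 2.73 log2 (SE 0.34, adjusted p = 0.017), or 6.63-fold, in #10, and gave 2.27 in #3 and 0.36 in #1. All 6 of its probe sets were called in #10 when tested singly, at 2.50 to 2.75 log2, although 2 of them hold the same values. FAM162A, which encodes a mitochondrial protein linked to hypoxic cell death, ranged over 10.21 to 11.93 log2 and gave 1.10 in #10 (adjusted p = 0.074), 1.11 in #3 and -0.03 in #1.

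**Figure D2:**
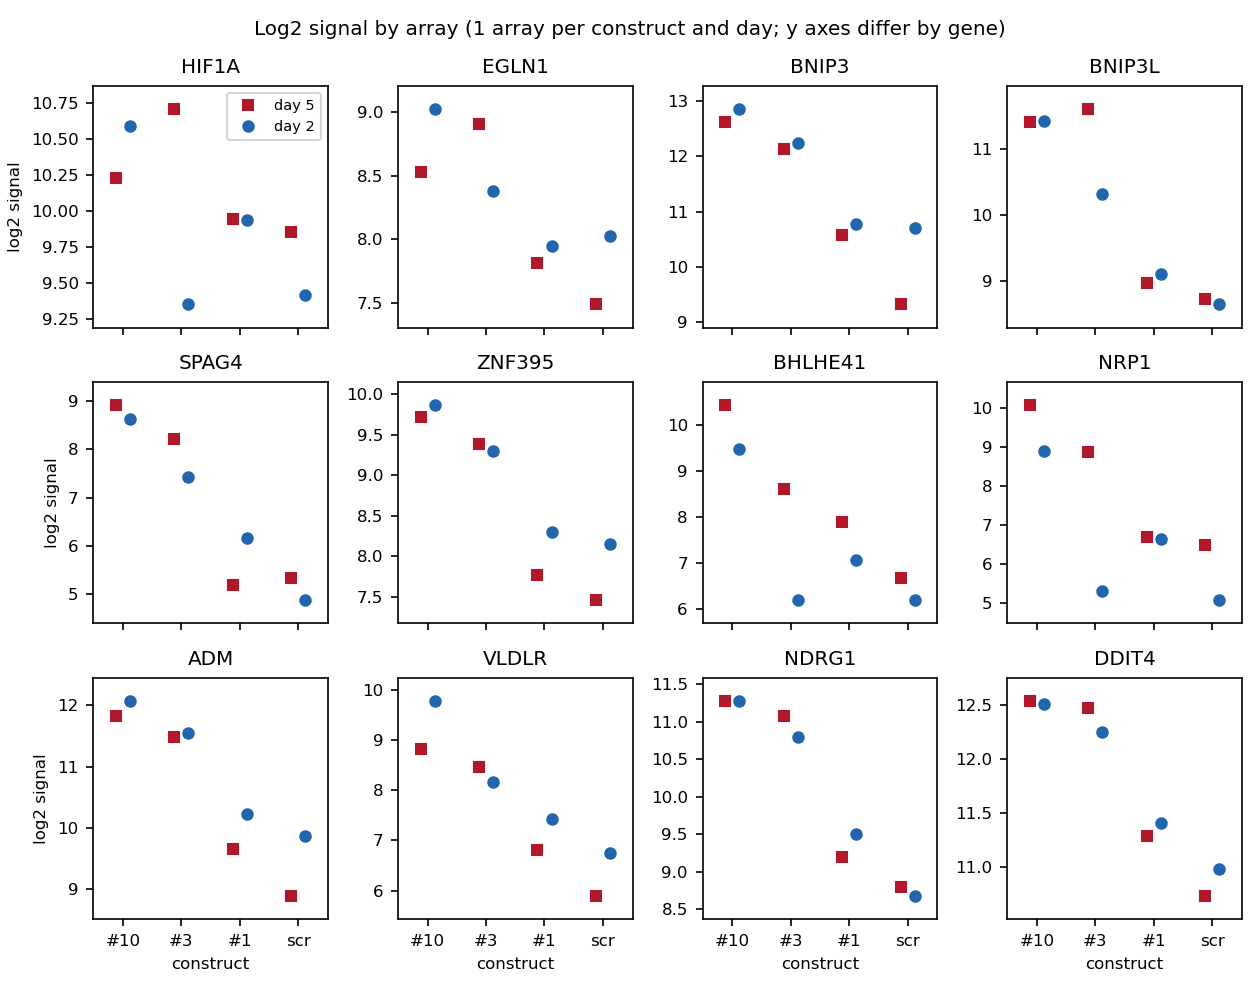
Log2 signal of 12 genes in each array, with constructs in the order #10, #3, #1 and scramble (scr), day 5 as red squares and day 2 as blue circles; each point is 1 array and the y axes differ by gene. For BNIP3, SPAG4, ADM, NDRG1 and DDIT4 all 4 arrays of #10 and #3 lie above all arrays of #1 and scramble, whereas for HIF1A, BHLHE41 and NRP1 the day 2 array labelled #3 lies with scramble.

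Of the 10 tested genes grouped under transcription and chromatin, 6 were called higher in #10, SPAG4 among them. SPAG4, which encodes a nuclear envelope protein and was placed in this group for ordering only, had the largest change of this group there. At day 5 SPAG4 had 8.92 log2 in #10, 8.21 in #3, 5.18 in #1 and 5.33 in the array labelled scramble, and at day 2 it had 8.64 in #10, 7.44 in the array labelled #3, 6.15 in #1 and 4.88 in scramble. Both scramble arrays and the day 5 array of #1 were under 5.83 log2, so the size is uncertain. The difference of SPAG4 from scramble was 3.67 log2 (SE 0.38, adjusted p = 0.0133) in #10, with 2.72 in #3 and 0.56 in #1. ZNF395, a zinc finger transcription factor gene, followed the same order. At day 5 ZNF395 had 9.72 log2 in #10, 9.39 in #3, 7.76 in #1 and 7.46 in the array labelled scramble, and at day 2 it had 9.87 in #10, 9.30 in the array labelled #3, 8.30 in #1 and 8.15 in scramble. All 4 arrays of #10 and #3 stood apart from all others. ZNF395 rose by 1.98 log2 (SE 0.23, adjusted p = 0.016) in #10, with 1.54 in #3 and 0.22 in #1, while its second probe set gave -0.01 in #10.

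BHLHE40 and BHLHE41 encode related repressors of the circadian clock. At day 5 BHLHE40 had 9.61 log2 in #10, 8.63 in #3, 7.77 in #1 and 7.32 in the array labelled scramble, and at day 2 it had 8.59 in #10, 7.96 in the array labelled #3, 7.63 in #1 and 7.58 in scramble. The day 5 array of #10 stood alone at the top. BHLHE40 rose by 1.65 log2 (SE 0.30, adjusted p = 0.046) in #10, with 0.84 in #3 and 0.25 in #1. At day 5 BHLHE41 had 10.44 log2 in #10, 8.61 in #3, 7.89 in #1 and 6.67 in the array labelled scramble, and at day 2 it had 9.48 in #10, 6.20 in the array labelled #3, 7.07 in #1 and 6.19 in scramble. The array labelled #3 at day 2 was level with the scramble array of that day (a difference of 0.01), whereas #10 exceeded it by 3.29. BHLHE41 rose by 3.53 log2 (SE 0.42, adjusted p = 0.0162), or 11.6-fold, in #10, with 0.97 in #3 and 1.05 in #1. Its other tested probe set gave 0.57 in #10, and a dimmer, untested one (mean 5.30 log2) gave -0.13.

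Of 3 tested histone demethylase genes, KDM3A and KDM4C rose in #10. KDM3A encodes an H3K9 demethylase, and at day 5 KDM3A had 10.26 log2 in #10, 10.38 in #3, 9.06 in #1 and 8.45 in the array labelled scramble, and at day 2 it had 10.47 in #10, 10.01 in the array labelled #3, 9.11 in #1 and 9.07 in scramble. Arrays of #10 and #3 did not overlap with scramble, and KDM3A rose by 1.60 log2 (SE 0.25, adjusted p = 0.0368) in #10, with 1.44 in #3 and 0.33 in #1. KDM4C acts on H3K9 and H3K36. At day 5 KDM4C had 9.40 log2 in #10, 9.43 in #3, 8.04 in #1 and 8.02 in the array labelled scramble, and at day 2 it had 9.25 in #10, 8.73 in the array labelled #3, 7.87 in #1 and 7.98 in scramble. The arrays of #1 were level with scramble, and KDM4C rose by 1.33 log2 (SE 0.21, adjusted p = 0.0389) in #10, with 1.08 in #3 and -0.04 in #1, though its 4 tested probe sets spanned 0.01 to 1.33 in #10. KDM4B, a close relative, ranged only over 7.44 to 7.86 log2 and gave 0.17 in #10 (adjusted p = 0.71), 0.07 in #3 and 0.00 in #1.

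JMJD6, which encodes a lysyl hydroxylase of splicing factors, ranged over 8.98 to 9.56 log2 and gave 0.35 in #10 (adjusted p = 0.365), 0.34 in #3 and 0.10 in #1. CITED2 competes with HIF-1 alpha for coactivators. It ranged over 8.41 to 10.07 log2 and gave 0.57 in #10 (adjusted p = 0.36), 0.81 in #3 and -0.29 in #1. ANKRD37, an ankyrin repeat gene, ranged over 6.78 to 8.52 log2 and gave 1.19 in #10 (adjusted p = 0.0758), 1.08 in #3 and 0.00 in #1. The nuclear receptor gene RORA was not tested, and its hairpin arrays differed from the same-day scramble array by -0.41 to 0.14.

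Of the 4 tested genes for secreted and surface proteins, ADM and VLDLR rose in #10. NRP1 was called higher there too, but it passed the filter through the hairpin arrays. ADM encodes adrenomedullin, a vasodilator peptide. At day 5 ADM had 11.83 log2 in #10, 11.48 in #3, 9.66 in #1 and 8.89 in the array labelled scramble, and at day 2 it had 12.07 in #10, 11.55 in the array labelled #3, 10.23 in #1 and 9.86 in scramble. All 4 arrays of #10 and #3 were above every array of #1 and scramble. ADM rose by 2.57 log2 (SE 0.24, adjusted p = 0.0133), or 5.95-fold, in #10, with 2.14 in #3 (adjusted p = 0.0655) and 0.57 in #1, and its 3 probe sets were all called in #10.

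VLDLR encodes a lipoprotein receptor. At day 5 VLDLR had 8.83 log2 in #10, 8.47 in #3, 6.81 in #1 and 5.90 in the array labelled scramble, and at day 2 it had 9.78 in #10, 8.17 in the array labelled #3, 7.44 in #1 and 6.75 in scramble. It was the scramble pair that lay lowest, below both arrays of #1. VLDLR rose by 2.99 log2 (SE 0.30, adjusted p = 0.0133) in #10, with 2.00 in #3 and 0.80 in #1. NRP1 encodes a co-receptor for VEGF and semaphorins, and at day 5 NRP1 had 10.07 log2 in #10, 8.87 in #3, 6.70 in #1 and 6.48 in the array labelled scramble, and at day 2 it had 8.91 in #10, 5.30 in the array labelled #3, 6.64 in #1 and 5.08 in scramble. As with SPAG4, scramble at day 2 was under 5.83 log2, so the size is uncertain. The array labelled #3 at day 2 was 0.22 above scramble, whereas #3 at day 5 was 2.39 above the array labelled scramble. The difference of NRP1 from scramble was 3.71 log2 (SE 0.68, adjusted p = 0.0459) in #10, with a wide interval of 2.13 to 5.29. It was 1.31 in #3 and 0.89 in #1. Its second probe set, with a mean of 7.13 log2 against 7.26, gave 1.26 in #10, and the 4 dimmer ones gave -0.15 to 0.37; neither of the 2 that were tested singly was called (adjusted p = 0.052 and 0.134). In #3 the estimate for NRP1 turned to -0.04 (adjusted p = 0.998) without the day 5 array of #3.

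VEGFA, the angiogenic growth factor and a classical HIF target, did not change past the test on the probe set that represents it. At day 5 VEGFA had 9.17 log2 in #10, 8.82 in #3, 9.28 in #1 and 9.39 in the array labelled scramble, and at day 2 it had 9.06 in #10, 9.37 in the array labelled #3, 9.18 in #1 and 9.09 in scramble. The groups overlapped, and the changes were -0.12 in #10 (adjusted p = 0.816), -0.15 in #3 and -0.02 in #1. Its 10 probe sets differed from one another. The second brightest, with a mean of 9.10 log2 against 9.17, had at day 5 a signal of 10.39 in #10, 9.95 in #3, 8.32 in #1 and 8.06 in the array labelled scramble, and at day 2 it had 9.59 in #10, 9.31 in the array labelled #3, 8.42 in #1 and 8.77 in scramble. There both #10 arrays and both #3 arrays were above both scramble arrays. Of the 9 probe sets tested singly, 3 gave 1.53 to 1.58 log2 in #10, 1 gave 0.84, and the other 5 lay between -0.24 and 0.35. None was called, the lowest adjusted p being 0.053. The flat VEGFA value thus holds for some of its probe sets and not for others.

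**Figure D3:**
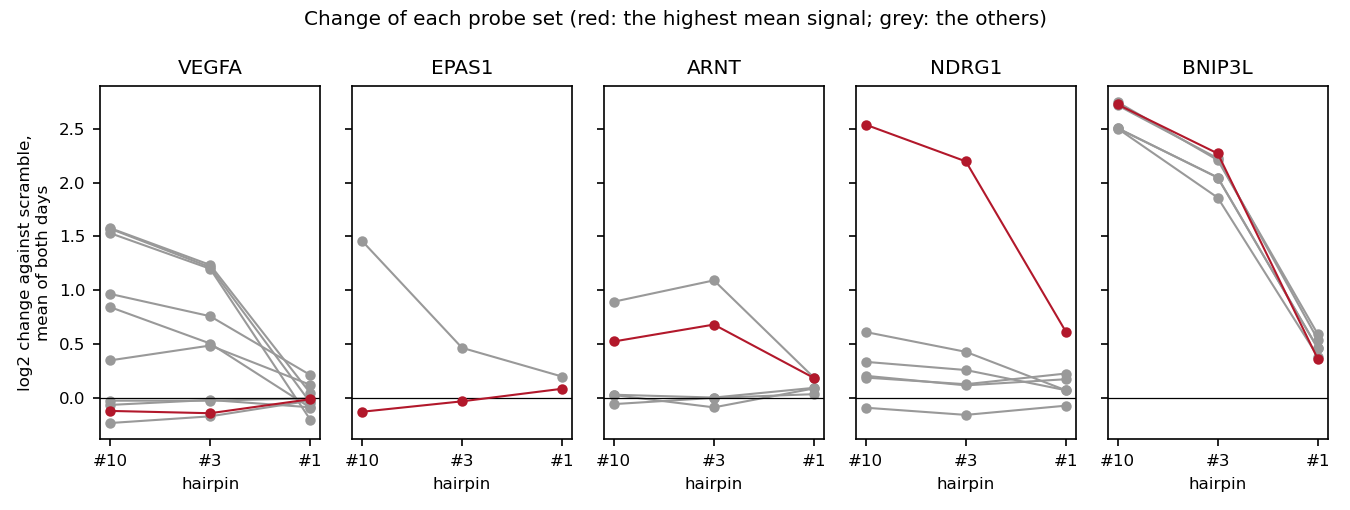
Log2 change against scramble, as the mean of both days, for each probe set of VEGFA, EPAS1, ARNT, NDRG1 and BNIP3L in #10, #3 and #1; each line is 1 probe set, red for the one with the highest mean signal and grey for the others. The BNIP3L lines run together, the VEGFA lines split into a flat set and a raised set, and in NDRG1 the red line alone is far above 0.

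Of the 7 tested genes of metabolism, folding and stress, 4 rose in #10 and NDRG1 rose in #3 too. NDRG1 encodes a stress-responsive protein of the NDRG family. At day 5 NDRG1 had 11.28 log2 in #10, 11.08 in #3, 9.20 in #1 and 8.80 in the array labelled scramble, and at day 2 it had 11.28 in #10, 10.80 in the array labelled #3, 9.50 in #1 and 8.68 in scramble. All 6 hairpin arrays exceeded both scramble arrays, and the 2 arrays of #10 were level with each other. NDRG1 rose by 2.54 log2 (SE 0.20, adjusted p = 0.0133) in #10 and by 2.20 log2 (SE 0.20, adjusted p = 0.0444) in #3, and had 0.61 in #1 (adjusted p = 1.00). This bright probe set, with a mean of 10.08 log2, stood alone: the 3 others that were tested, with means of 6.30 to 6.91, gave 0.20 to 0.61 in #10 and were not called. With the mean of all its probe sets, NDRG1 was not called in #10 (0.63 log2, adjusted p = 0.080) or in #3 (0.49, adjusted p = 0.421).

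DDIT4 encodes REDD1, an inhibitor of mTORC1. At day 5 DDIT4 had 12.53 log2 in #10, 12.47 in #3, 11.28 in #1 and 10.73 in the array labelled scramble, and at day 2 it had 12.51 in #10, 12.25 in the array labelled #3, 11.41 in #1 and 10.98 in scramble. It was bright in every array, and all hairpin arrays stood above both scramble arrays. DDIT4 rose by 1.66 log2 (SE 0.19, adjusted p = 0.016) in #10, with 1.499 in #3 and 0.49 in #1. AK4 encodes a mitochondrial adenylate kinase, and at day 5 AK4 had 10.78 log2 in #10, 10.51 in #3, 9.02 in #1 and 7.57 in the array labelled scramble, and at day 2 it had 10.74 in #10, 10.28 in the array labelled #3, 8.82 in #1 and 9.06 in scramble. The array labelled scramble at day 5 was 1.49 below scramble at day 2 and was the lowest of all. AK4 rose by 2.44 log2 (SE 0.40, adjusted p = 0.0408) in #10, with 2.08 in #3 and 0.61 in #1. INSIG2 encodes a membrane protein that retains the sterol sensor complex in the endoplasmic reticulum. At day 5 INSIG2 had 9.08 log2 in #10, 9.20 in #3, 7.53 in #1 and 7.61 in the array labelled scramble, and at day 2 it had 9.38 in #10, 9.15 in the array labelled #3, 7.61 in #1 and 7.95 in scramble. No array of #10 or #3 overlapped with any other. INSIG2 rose by 1.45 log2 (SE 0.19, adjusted p = 0.0192) in #10, with 1.40 in #3 and -0.21 in #1, and its 3 probe sets were all called in #10.

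The other 3 tested genes of this group did not pass. P4HA1, which encodes a collagen prolyl hydroxylase, ranged over 8.33 to 12.43 log2 and gave 2.33 in #10 (adjusted p = 0.0814), 2.15 in #3 and -0.52 in #1. ERO1A encodes an oxidase of the endoplasmic reticulum. It ranged over 6.47 to 9.78 log2 and gave 1.56 in #10 (adjusted p = 0.145), 1.04 in #3 and -0.52 in #1. WSB1, which encodes a ubiquitin ligase adaptor, ranged over 10.85 to 12.62 log2 and gave 1.38 in #10 (adjusted p = 0.0825), 0.99 in #3 and -0.02 in #1. P4HA2, not tested, ranged over 3.65 to 4.13 log2, and its hairpin arrays differed from the same-day scramble array by -0.11 to 0.49. P4HA1 passed in #10 when either array of #3 or of #1 was left out, and WSB1 when either array of #3 or the day 5 array of #10 was. Calls over all tested genes rose without an array of #3 or #1 and fell without the day 5 array of #10. These passes are therefore not read as results about either gene.

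The calls in #10 rest on both scramble arrays and in part on the scaling. With each array centred on its median, 10 of the 15 remained, and BHLHE40, KDM3A, KDM4C, NRP1 and AK4 did not (adjusted p = 0.062 to 0.073). Over all tested genes 82 were then called, against 258 as deposited. With each probe set tested singly, 13 of the 28 had a probe set called in #10, and BHLHE40 (adjusted p = 0.053) and NRP1 did not. By probe set, 23 of the 77 that belong to these genes were called in #10, where 1.04% of all probe sets tested singly were. The 13 is a count of genes with any called probe set, so 1.04% is not its background. Without the array labelled scramble at day 5, or without scramble at day 2, all calls in #10 were lost. This held over all tested genes as among the 28, so the loss is not particular to them. The lone scramble array was there assumed to vary as the other arrays do. The 15 changes then ranged from 1.18 to 3.88 and from 1.48 to 3.99 log2. These genes were chosen by their calls and had both #10 arrays above both scramble arrays. Their positive sign was therefore near certain beforehand and is no support. Without both doubted arrays, 20 of 28 were called in #10 and 16 in #3, but 2056 and 553 of all tested genes were as well.

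**Figure D4:**
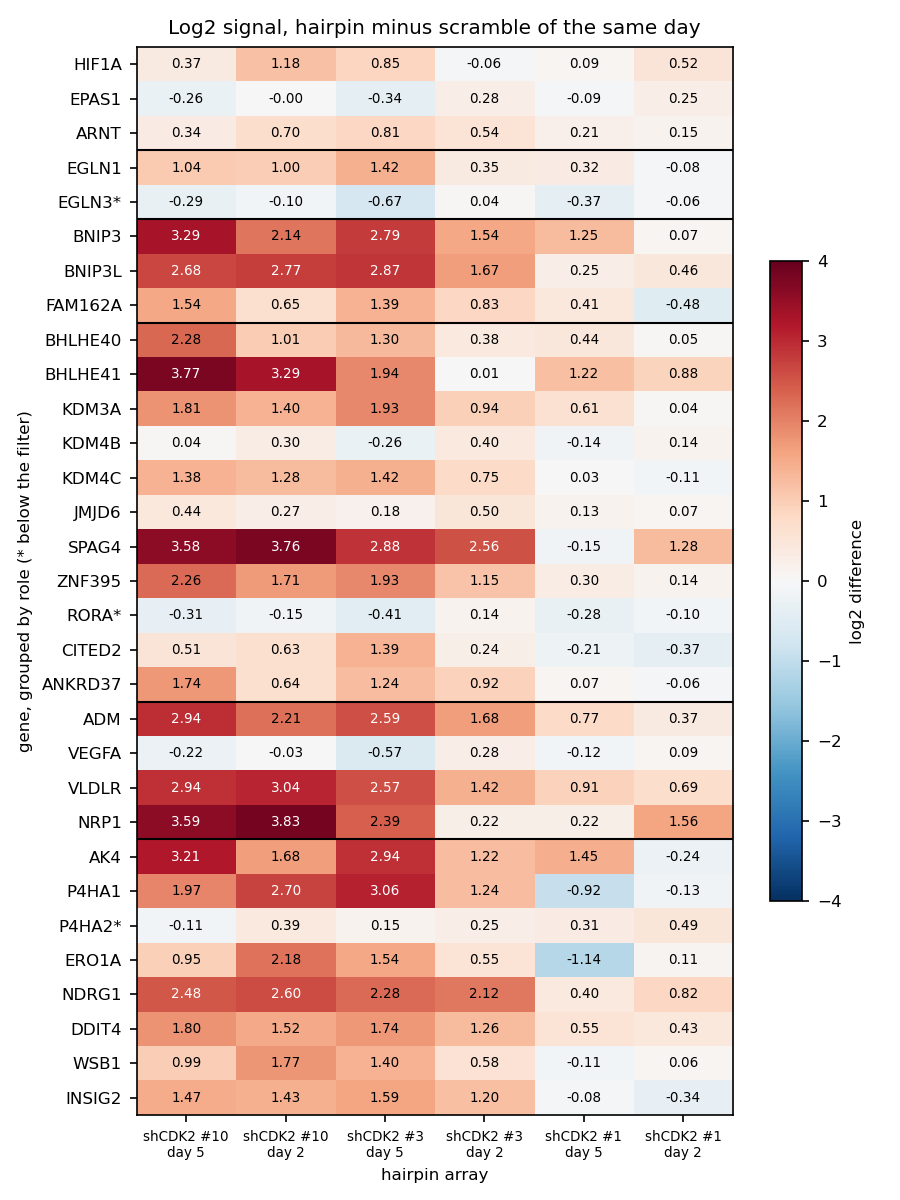
Log2 signal of each hairpin array minus the same-day scramble array for the 31 genes on the array, grouped by role, with values printed in the cells and an asterisk on the 3 genes below the filter. The columns of #10 and of #3 at day 5 are mostly above 1, those of #1 mostly near 0, and the day 2 array labelled #3 lies between.

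Array by array, the median over the 28 genes stood at 1.77 log2 above the array labelled scramble in #10, 1.57 in #3 and 0.21 in #1 at day 5. At day 2 it stood at 1.48 above scramble in #10, 0.79 in the array labelled #3 and 0.10 in #1. The medians of all tested genes in the same arrays lay between -0.11 and 0.03. The median was of similar size in the day 5 and day 2 arrays of #10, where CDK2 on its brightest probe set was at 92.9% and 34.0% of the same-day scramble array, and it was near 0 in #1 at day 2, where CDK2 was at 39.9%. The 92.9% is against the array labelled scramble at day 5, which is in doubt; against scramble at day 2, CDK2 in #10 at day 5 was at 49.4%. In the array labelled #3 at day 2, where CDK2 was at 95.0%, NDRG1 (2.12), SPAG4 (2.56) and BNIP3 (1.54) were above scramble while HIF1A (-0.06) and BHLHE41 (0.01) were not. The part of the CDK2 level in these values was not tested.

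Hairpin #10 was set against #1, a comparison in which the scramble arrays enter only through the day term and the spread. Here 7 of the 28 were higher in #10 (0.319% of all tested genes were called higher) and none was lower: ADM, BNIP3L, INSIG2, NDRG1, SPAG4, VLDLR and ZNF395. The median was 1.40 log2, against -0.08 over all tested genes. The differences were 3.11 log2 (SE 0.38, adjusted p = 0.0424) for SPAG4, 2.37 log2 (SE 0.34, adjusted p = 0.0472) for BNIP3L and 2.19 log2 (SE 0.30, adjusted p = 0.0466) for VLDLR. They were 2.01 log2 (SE 0.24, adjusted p = 0.0424) for ADM, 1.93 log2 (SE 0.20, adjusted p = 0.0424) for NDRG1, 1.76 log2 (SE 0.23, adjusted p = 0.0438) for ZNF395 and 1.66 log2 (SE 0.19, adjusted p = 0.0424) for INSIG2. Both #10 arrays lay above both #1 arrays for 26 of the 28, as for 24.5% of all tested genes, the exceptions being EPAS1 and VEGFA. HIF1A differed by 0.47 (95% interval -0.40 to 1.33) and EGLN1 by 0.90 (interval 0.25 to 1.54), neither past the test. All 7 calls were lost with median centring (adjusted p = 0.072 to 0.089), and without either scramble array or the day 5 array of #10 or #1. In each of these settings the calls over all tested genes were lost too. CDK2 itself differed between #10 and #1 by -0.02 log2 (SE 0.42), not past the test.

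With the 3 hairpins taken as repeats of the knockdown, no gene passed on either day. At day 5, 0 of the 28 were called (0% of all tested genes by limma, with 171 genes and 2 of the 28 at an unadjusted p under 0.05), with a median of 1.23 log2, against -0.09 over all tested genes. The 2 were AK4, at 2.53 log2 (SE 0.86, adjusted p = 0.913), and BNIP3, at 2.44 log2 (SE 0.94, adjusted p = 0.913). At day 2, 0 were called (0% of all tested genes, with 442 genes and 0 of the 28 at an unadjusted p under 0.05), with a median of 0.80, against 0.02. The difference between the hairpins enters the spread here: the SE of BNIP3 was 0.94, against 0.31 in the fit by construct. The difference of the changes between the days gave 0 calls (0% of all tested genes, with 164 and 0 at an unadjusted p under 0.05), with a median of 0.30, against -0.04.

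Day 5 against day 2 within the hairpin arrays gave 0 calls (0% of all tested genes by limma, with 260 genes and 0 of the 28 at an unadjusted p under 0.05) and a median of -0.03, as over all tested genes (-0.03). NRP1 had 1.60 log2 (SE 1.09, adjusted p = 1.00) and BHLHE41 1.39 log2 (SE 0.94, adjusted p = 1.00). NRP1 was higher at day 5 than at day 2 by 1.17 in #10, 3.57 in #3, 0.06 in #1 and 1.40 in scramble. BHLHE41 likewise differed by 0.95 in #10, 2.41 in #3, 0.82 in #1 and 0.48 in scramble. The differences of #3 are set against the array labelled #3 at day 2.

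P4HA1 and ERO1A were higher at day 5 in #3 and lower in #10 and #1. P4HA1 at day 5 minus day 2 was -1.22 in #10, 1.34 in #3, -1.28 in #1 and -0.48 in scramble. ERO1A gave -1.23 in #10, 1.00 in #3, -1.24 in #1 and 0.00 in scramble. In the array labelled scramble at day 5, 10 of the 28 were more than 0.5 log2 below scramble at day 2, against 4 in #10, 1 in #3 and 7 in #1. Over all tested genes the shares were 8.45% in scramble, 7.68% in #10, 9.95% in #3 and 4.68% in #1. The lowest of these 10 were AK4 (-1.49), BNIP3 (-1.37), ADM (-0.97) and FAM162A (-0.89). For these 10 genes the change at day 5 above is larger by such a fall than it would be against scramble at day 2. For 13 of the 28 scramble was higher at day 5 than at day 2, and their changes at day 5 are smaller by that rise. With 1 scramble array a day, none of these falls and rises has a replicate.

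**Figure D5:**
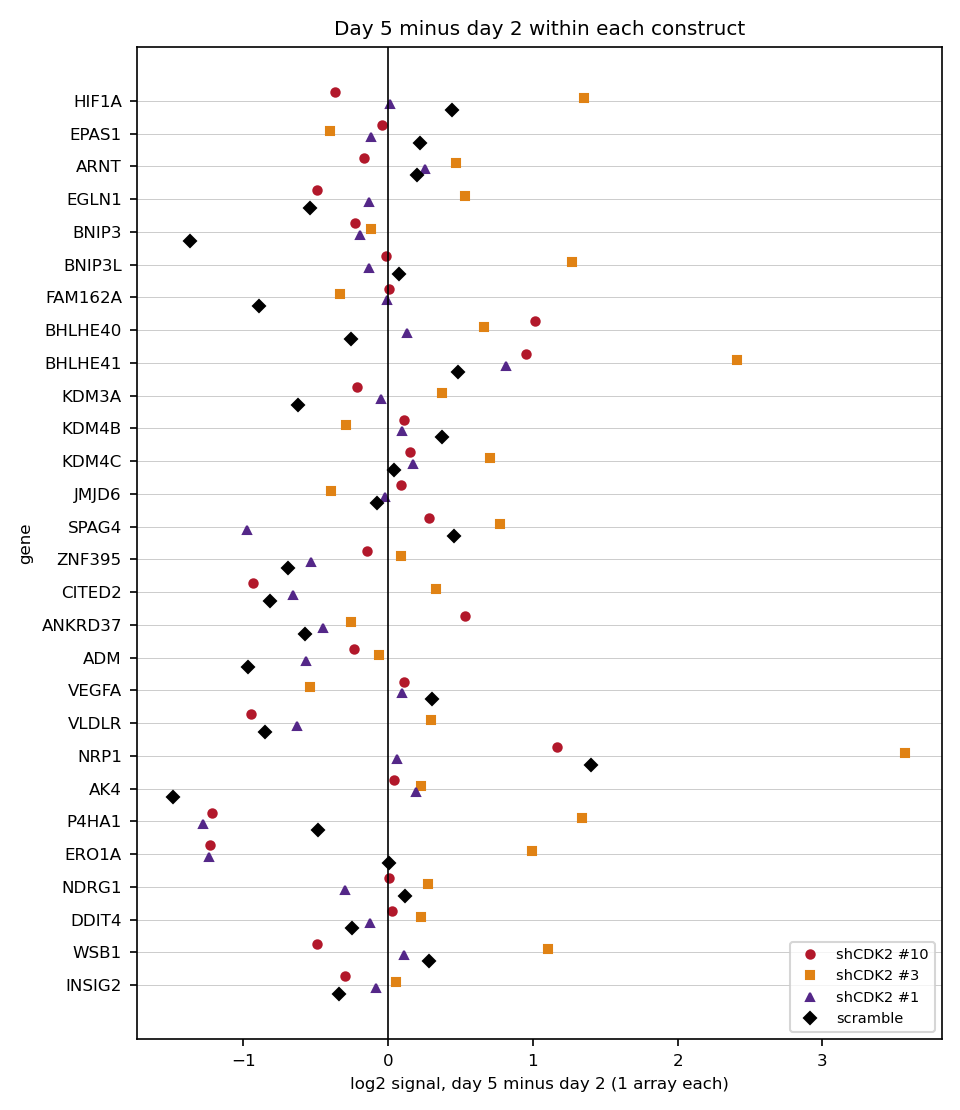
Log2 signal at day 5 minus that at day 2 for the 28 tested genes within #10 (red circles), #3 (orange squares), #1 (purple triangles) and scramble (black diamonds), 1 array each. NRP1, BHLHE41, HIF1A, P4HA1 and BNIP3L stand furthest to the right in #3, and AK4 and BNIP3 furthest to the left in scramble.

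Other hypoxia-inducible genes, glycolytic enzymes among them, were counted for comparison. Of 38 listed, 35 were on the array and 31 were tested. In #10, 9 were higher and none was lower (1.69% of all tested genes were higher), with a median of 0.68 log2 against -0.09 over all tested genes, among them PLIN2, a lipid droplet protein gene, at 3.41 (SE 0.32) and HK1, a hexokinase gene, at 3.21 (SE 0.24). The list did not rise as one. Genes not called in #10 included LDHA (0.26), PGK1 (0.38), ENO1 (0.11), ALDOA (0.22), SLC2A1 (0.28) and HK2 (0.97). In #3, 3 were higher (0.0311% of all tested genes) with a median of 0.70 against -0.07, among them the aldolase gene ALDOC at 3.02 (SE 0.29) and HK1 at 2.33 (SE 0.24). In #1, 0 were called (0% of all tested genes by limma, with 171 at an unadjusted p under 0.05), with a median of 0.05 against -0.02. Against #1, 8 were higher in #10 (0.319% of all tested genes), with a median of 0.79 against -0.08, among them HK1 at 2.91 (SE 0.24) and HILPDA, another lipid droplet gene, at 2.83 (SE 0.41). The promyelocyte markers had a median of -0.52 in #10, with 0 of 7 called, and their part in these changes was not tested.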

How the data were processed

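Signals of 49395 probe sets on 8 arrays were used as the authors deposited them, on a scale taken as log2 from its range. Partek is named per the submitters' processing notes, with no version, and the normalization is not given in the sources used here. The platform annotation gave 1 gene for 44994 of them, several for 1832 and none for 2569. Symbols were updated by Entrez gene ID, and each gene took its probe set with the highest mean. The genes described and the other lists were chosen with earlier results of these data known. All 33 genes are named. Values by array are given for the HIF factors, the sensors and mitophagy receptors that were analysed, VEGFA and the genes past the test, ranges and changes for the other tested genes, and differences from scramble for the other untested ones.

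All tests were two-sided and used limma 3.58.1 in R 4.3.3 (lmFit and eBayes), and p-values were adjusted by Benjamini-Hochberg over 12845 genes. One fit had construct and day as terms, with 3 residual degrees of freedom. The other had a mean per arm and day, with 4, the spread of hairpin arrays standing in for that of the single scramble array on each day. The fits were tested on simulated data. Alternatives were quantile normalization, median centring, the mean of probe sets, no filter, an intensity trend, a replicate block, leaving out each array, and, chosen after seeing the data, leaving out both doubted arrays and testing each probe set singly. The number of arrays limits the precision.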

Additional observations from a re-analysis of the deposited data

How the results depend on the processing

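Of the genes described here, 15 were called in #10. The count was 10 with median centring (82 over all tested genes) and 12 with the mean of probe sets (233 over all). It was 15 without the filter (269 over all 18132 genes) or with an intensity trend (323 over all). It moved both ways when 1 array was left out, as did the count over all tested genes. Without either scramble array all calls were lost, over all tested genes too. BHLHE40, KDM3A, KDM4C, NRP1 and AK4 lost the call with median centring, and KDM4C, NRP1 and NDRG1 with the mean of probe sets. The 1 call in #3 became 2 with quantile normalization, 0 with median centring, 0 with the mean of probe sets, 3 with an intensity trend, 0 with probe sets tested singly and 0 to 14 with 1 array left out, the 14 being without the array labelled #3 at day 2. The 7 calls of #10 against #1 became 0 with median centring, 4 with the mean of probe sets and 0 to 18 with 1 array left out, 0 without either scramble array or the day 5 array of #1 or #10. Without both doubted arrays the counts were 20 in #10, 16 in #3 and 21 in #10 against #1. Over all genes, the 258 calls in #10 became 82 with median centring, 363 with quantile normalization and 2056 without both doubted arrays; the share higher among calls was 84.1% as deposited, 97.6% with median centring and 78.5% with quantile normalization. The 42 calls of #10 against #1 became 0 with median centring, 19 with the mean of probe sets, 71 with an intensity trend and 1536 without both doubted arrays. The comparisons with 0 calls kept 0 of the 28 genes under every alternative that could be fitted. NRP1 in #3, not called, turned to -0.043 log2 without the day 5 array of #3 and was 2.66 without the array labelled #3 at day 2. No called gene of the 28 changed sign in #10, #3 or #10 against #1 under any alternative run. Genes chosen by their calls were unlikely to do so, and no support is drawn from it. Calls over all tested genes mostly rose and fell along with those of the 28, so these shifts are not read as results about the 28. The cause of these shifts was not tested.

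The hairpin numbers are shared between days. Deviations from the day means correlated between days at 0.43 for #10, -0.23 for #3 and 0.72 for #1, and the day 5 array of #3 correlated best with the day 2 array of #10 (0.57). The arrays of a number share their hairpin, but they did not deviate together in every pair. With hairpin as a replicate block, day 5 against day 2 gave 0 calls among the 28 and 0 over all genes, with 560 genes at an unadjusted p under 0.05 against 260 without it. The hairpin change at day 5 cannot be fitted without the array labelled scramble at day 5, nor that at day 2 without scramble at day 2, nor their difference without either.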
